A study of Oryza sativa with 9 samples.

Results

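The comparison of *osmads58* CRISPR with the wild type rests on 5 of the 9 samples of the series, 3 wild-type and 2 *osmads58* CRISPR libraries, chosen by their labels. All are RNA-seq libraries of young rice panicles 1 cm long. *OsMADS58* encodes a C-class MADS box transcription factor, and the *osmads58* CRISPR plants carry small frameshift edits made with CRISPR-Cas9 in a coding exon of this gene. Each CRISPR sample pooled panicles of several plants of 1 independent transgenic line, taken after genotyping, and the plants were completely sterile, a state that only some homozygotes reach. Which edit each sample carries is not given in the sources used here. Another 4 samples, from the fertile transposon insertion line *osmads58* dSpm, entered the model fit for its estimate of spread and are otherwise not described.

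C-class MADS box genes specify stamens and carpels and end the growth of the floral meristem, and in grasses the role is shared between duplicated genes. A panicle of this length holds anthers in which sporogenous cells become meiocytes and the tapetum, the layer that feeds them, takes shape. Meiosis in these cells proceeds from programmed DNA breaks through strand exchange and pairing of homologues to crossovers.

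The primers that define the material and some of the loci measured below are shown because they fix which transcripts are meant. The first pair amplified the edited stretch of *OsMADS58* on chromosome 5 for genotyping, and the others measured *PAIR1* on chromosome 3, *RPA2A* on chromosome 2, the oxidation reduction locus LOC_Os02g47470 on chromosome 2 and the cell cycle locus LOC_Os05g41390 on chromosome 5 in the study's RT-qPCR. All are written 5′ to 3′.
OsMADS58 genotyping forward: gccatgatgtctccagcact
OsMADS58 genotyping reverse: tgtcacaagaaaaggtagcaact
PAIR1 RT-qPCR forward: atggagggggttgttagagc
PAIR1 RT-qPCR reverse: ggtgctcggttcattggaga
RPA2A RT-qPCR forward: gaagcgtgctactgctttcg
RPA2A RT-qPCR reverse: tgcagggctaccaatctgtg
LOC_Os02g47470 RT-qPCR forward: acctcgcaaccaagtacagg
LOC_Os02g47470 RT-qPCR reverse: cactcctgctcggtgttctt
LOC_Os05g41390 RT-qPCR forward: aggtcgtgaacacgcttaca
LOC_Os05g41390 RT-qPCR reverse: agctgggctgtcctgtagaa

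The 5 libraries summed to between 67735552 and 83042245 estimated counts (median 79989437), with a count for 25898 to 27372 genes. Levels are given as CPM, counts scaled to library size after TMM normalization. A gene with no count could have held as many as 3, which is 0.0337 to 0.0412 CPM by library and covers counting error only. Wild type 1 stood apart from its group. Among genes of at least 10 CPM, 8.38% differed by more than 2-fold between wild type 1 and 2 and 8.25% between wild type 1 and 3, against 0.22% between wild type 2 and 3 and 0.381% between the 2 CRISPR samples. Results are therefore given with and without wild type 1.

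*OsMADS58* (LOC_Os05g11414) was lower in both CRISPR samples. It stood at 8.38, 3.29 and 4.01 CPM in the wild-type samples and at 0.27 and 0.471 CPM in the CRISPR samples. The groups did not overlap, and wild type 1 held the highest level. On the log2 scale the change was -3.81 (standard error 0.67, edgeR quasi-likelihood adjusted p = 0.0153, Benjamini-Hochberg), and it was -3.29 without wild type 1 (edgeR adjusted p = 0.0308). Gene counts do not read a small edit in the sequence, and the cause of the lower *OsMADS58* level was not tested. In whole panicles, fewer cells of a type and less RNA per cell cannot be told apart, here and for every gene below.

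Across 27251 genes tested, 555 were higher in *osmads58* CRISPR (2.04%) and 957 were lower (3.51%), at an adjusted p below 0.05 and a change of more than 2-fold by the edgeR quasi-likelihood fit. By transgenic line, 511 of the 555 were past 2-fold of the wild-type mean in both CRISPR samples, as were 896 of the 957, a description only, since the call itself favours samples that agree. The median log2 fold change was 1.73 for the genes called higher and -1.88 for those called lower. With wild type 1 left out, 223 genes were called higher (0.824%) and 552 lower (2.04%), and 194 and 514 of these were among the first calls. Each of the 1512 first calls kept its direction. Wild type 1 was the lowest wild-type sample for 66.5% of the genes called higher, against 40.6% of all genes tested, and the highest for 73.8% of those called lower, against 42.2%. It thus lay further from the CRISPR samples than its group for most called genes. Its part in the calls beyond the counts without it was not tested.

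The calls were unevenly spread over expression levels. Of 2334 genes with a mean over 100 CPM, 219 were lower (9.38%) and 12 higher (0.514%), and their median log2 fold change was -0.25. The counts were 124 lower and 7 higher without wild type 1. Of 7209 genes between 1 and 10 CPM, 221 were lower and 267 higher. The 50 most abundant genes of each library took 10.96% to 11.9% of its counts in the wild type and 8.41% to 8.76% in *osmads58* CRISPR. Over all genes tested the median log2 fold change was 0.0047.

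**Figure D1:**
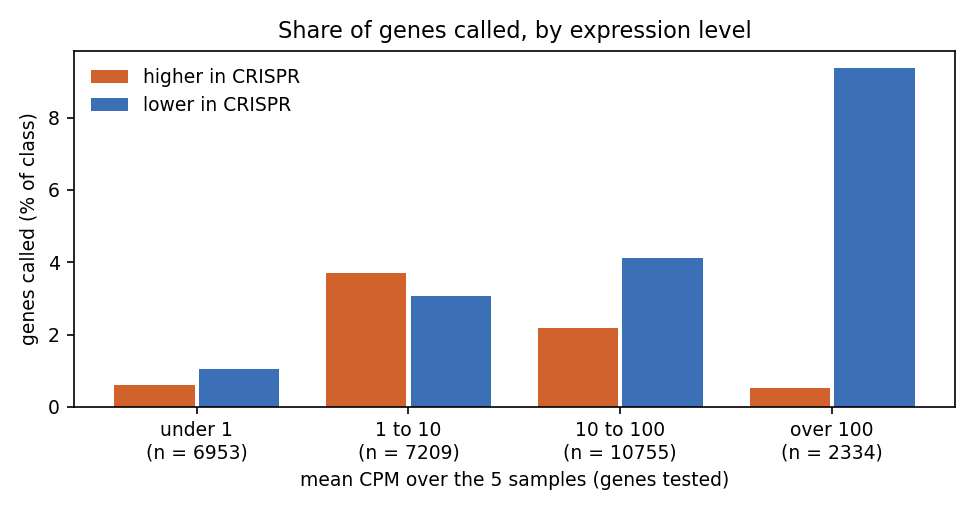
Share of genes called higher (orange) or lower (blue) in *osmads58* CRISPR against the wild type, in percent of each class of mean CPM, with the genes tested under each class. In the class over 100 CPM 9.38% of genes were lower and 0.514% higher.

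Known meiotic genes did not move together. The study's supplement pairs 28 rice meiotic genes with locus identifiers, and all passed the filter on low counts. Of these, 1 was called higher and 1 lower, beside 2.04% and 3.51% of all genes. A log2 fold change above 0 was found for 14 and below 0 for 14, and the median was 0.0046, beside 0.0047 over all genes. At an unadjusted p under 0.05 there were 10 of the 28, against 25.7% of all genes, and DESeq2 called 2 higher and 2 lower (4.72% and 6.73% of all genes). With wild type 1, 2 or 3 left out in turn, edgeR called none of the 28. Without wild type 1, 0.824% of all genes were called higher and 2.04% lower, and 7 of the 28 had an unadjusted p under 0.05. The 8 germ cell and meiotic markers, all detected, were *MEL1*, *MEL2*, *ZYP1/ZEP1*, *PAIR3/ASY3*, *PAIR1/PRD3*, *SPO11-1*, *SDS* and *MER3/RCK*. Summed over these 8, the level was 332 to 358 CPM in the wild type and 265 to 291 CPM in *osmads58* CRISPR. *MEL1* and *SPO11-1*, neither of them called, carried most of this sum. The other 6 markers summed to 28.4 to 31.0 CPM in the wild type and 44.8 to 49.2 CPM in the mutant. The direction of the sum thus depended on the members taken. *MEL2* and *SDS* among these 6 had log2 fold changes below 0, as had *DMC1A* and *RAD51D* outside the markers.

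The 3 genes of germ cell fate and meiotic entry had log2 fold changes below 0, none called, and only *MEL1* had groups apart. *MEL1*, an Argonaute of germ cells before meiosis, was at 122, 124 and 131 CPM in the wild type and at 46.0 and 78.7 CPM in *osmads58* CRISPR. The groups did not overlap, but the CRISPR samples lay far apart, and the log2 fold change of -1.01 was not called (standard error 0.75, edgeR adjusted p = 0.432). *MEL2*, an RNA-binding protein needed for the switch to meiosis, was at 3.65 to 6.96 CPM in the wild type and 3.59 and 4.94 CPM in the mutant. *AM1*, listed as SWI1/DYAD/AM1 and needed for entry into meiosis, was at 19.97 to 25.2 CPM against 19.7 and 20.7 CPM. Neither was called. Of the cohesion genes, *RAD21.3*, a cohesin subunit, was at 183 to 206 CPM against 118 and 152 CPM (log2 fold change -0.55, edgeR adjusted p = 0.0797). *SGO1*, the protector of centromeric cohesion, had a log2 fold change of 0.77 (edgeR adjusted p = 0.233).

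Genes of the chromosome axis and synapsis held the 1 call upward. *ZYP1/ZEP1*, the transverse filament of the synaptonemal complex that joins paired homologues, was at 1.83, 2.49 and 1.61 CPM in the wild type and at 4.77 and 6.54 CPM in *osmads58* CRISPR. Both mutant samples lay above all wild-type samples. The fold change was 1.52 on the log2 scale (standard error 0.40, edgeR adjusted p = 0.0493), and without wild type 1 the adjusted p was 0.113. The axis genes beside it were not called. *PAIR3/ASY3* had a log2 fold change of 1.26 (edgeR adjusted p = 0.128) and *ASY1/PAIR2* of 0.36. *CRC1/PCH2*, which acts with the axis, was at 5.46 to 11.6 CPM against 7.14 and 7.22 CPM, inside the wild-type range.

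Among the genes that make DNA breaks, *PAIR1* showed the widest gap. *PAIR1/PRD3*, needed for break formation, was at 0.165, 0.188 and 0.701 CPM in the wild type and at 4.42 and 2.73 CPM in *osmads58* CRISPR. The groups did not overlap, yet the log2 fold change of 3.34 was not called (standard error 1.12, edgeR adjusted p = 0.0993, and 0.226 without wild type 1). It was called in 3 of 18 alternatives, DESeq2 among them (adjusted p = 0.0179). The study itself reports a significant change of *PAIR1* in this line. By RT-qPCR it reports significant changes of selected meiotic genes, with *PAIR1* and *RPA2A* among those plotted. *SPO11-1*, the enzyme that cuts the DNA, was at 181 to 198 CPM against 175 and 164 CPM (log2 fold change -0.17). *MRE11*, a nuclease that trims the ends, had a log2 fold change of 0.43, also without a call.

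Strand exchange held the 1 call downward. Of the 6 genes grouped under it here, which include the cyclin *SDS*, 4 had a log2 fold change below 0 and 2 above. *RAD51D*, of the homologous recombination machinery, was at 45.1, 34.8 and 33.2 CPM in the wild type and at 16.4 and 17.7 CPM in *osmads58* CRISPR. All wild-type samples lay above both mutant samples. Its fold change was -1.15 on the log2 scale (standard error 0.24, edgeR adjusted p = 0.026), and -0.997 without wild type 1 (edgeR adjusted p = 0.0578). *DMC1A*, the strand exchange protein specific to meiosis, was at 12.2, 5.03 and 4.78 CPM against 1.68 and 1.60 CPM, with a log2 fold change of -2.15 (edgeR adjusted p = 0.0774), and was called in 5 of 18 alternatives, DESeq2 among them (adjusted p = 0.0064). Rice has a near-identical second copy of *DMC1*, so reads may be split between copies and this value is uncertain. *RAD51C* had a log2 fold change of -0.61 and the meiotic cyclin *SDS* of -0.29, neither called.

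The subunits of replication protein A, which coats single-stranded DNA, differed in value among themselves. *RPA2A* was at 0, 0.524 and 0.764 CPM in the wild type and at 5.47 and 6.99 CPM in *osmads58* CRISPR. The groups were well apart, but the log2 fold change of 3.85 carried a standard error of 1.60 and was not called (edgeR adjusted p = 0.168). Wild type 1 was the sample at 0. The other 4 subunits ran from -0.47 for *RPA2B* to 0.50 for *RPA1C* on the log2 scale, with *RPA1A* at 0.03 and *RPA2C* at -0.29. Of the crossover genes, *MER3/RCK*, a DNA helicase, was at 11.1, 11.1 and 9.33 CPM against 18.2 and 20.7 CPM (log2 fold change 0.89, edgeR adjusted p = 0.0932). *ZIP4* was at 0.124, 1.17 and 1.27 CPM against 1.90 and 2.66 CPM and was not called (log2 fold change 1.41, edgeR adjusted p = 0.291). *MSH5* and *HEI10*, which act in crossover formation, had log2 fold changes of -0.20 and -0.02, and that of *HEI10* was positive without wild type 1 and with upper-quartile scaling. *PSS1*, a kinesin needed for male meiosis, had a log2 fold change of 0.67 (edgeR adjusted p = 0.162).

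**Figure D2:**
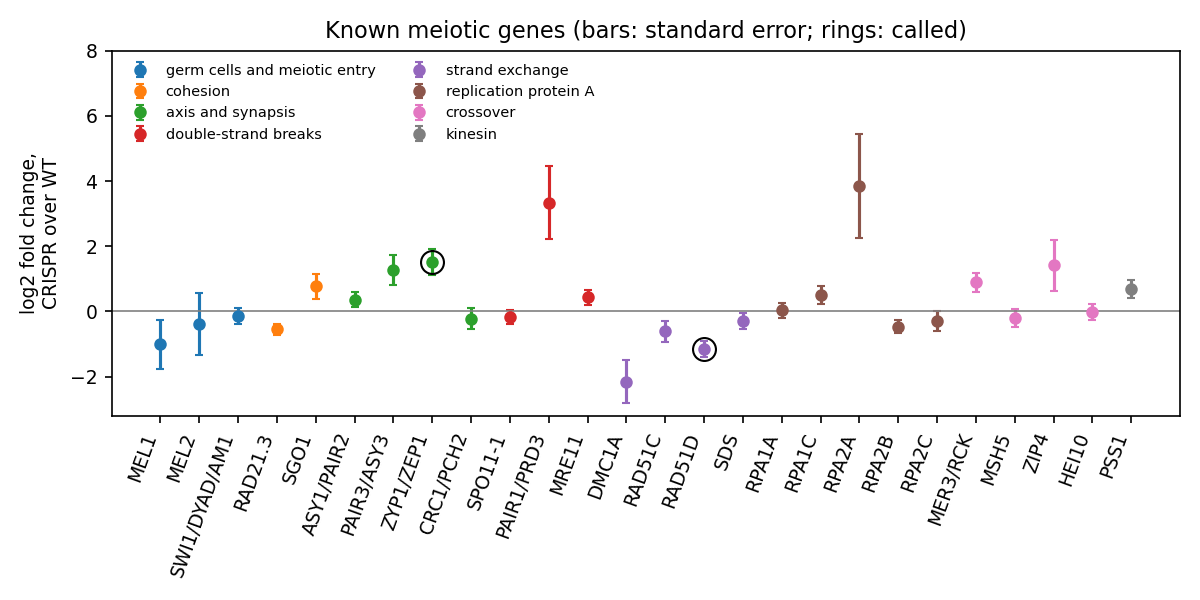
Log2 fold change of *osmads58* CRISPR over the wild type for 26 of the 28 known meiotic genes, coloured by role, with bars of 1 standard error from the edgeR fit of 2 against 3 samples. The rings mark the 2 called genes, *ZYP1/ZEP1* at 1.52 and *RAD51D* at -1.15, and the bars of *PAIR1*, *RPA2A* and *MEL1* are among the widest.

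Photosynthetic genes lay mostly above the wild type, with 1 call. The study lists 9 nuclear genes of the photosystems and the chloroplast ATP synthase as targets of OsMADS58. It took such targets from genes found raised in *osmads58* dSpm in earlier work, so an upward direction here is not independent evidence. By RT-qPCR it reports photosynthetic target genes as higher in *osmads58* CRISPR than in the wild type. *OsPsaG* had a count of 0 in the 5 samples, and 8 were tested. *OsPsaN*, a photosystem I subunit, was at 0.988, 1.61 and 0.994 CPM in the wild type and at 4.91 and 4.46 CPM in *osmads58* CRISPR. Both mutant samples were higher than all wild-type samples (log2 fold change 1.96, standard error 0.41, edgeR adjusted p = 0.0266, and 0.0675 without wild type 1). Of the 8, 7 had a log2 fold change above 0 and 6 had both CRISPR samples above all wild-type samples, and the median was 0.97. Over all genes, 2.04% were called higher and 29.0% had both CRISPR samples on top. DESeq2 called 2 of the 8 higher, beside 4.72% of all genes. Without wild type 1 edgeR called none, beside 0.824% of all genes higher, with 4 at an unadjusted p under 0.05. It called 1 higher without wild type 2 and none without wild type 3.

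The photosystem I subunit *OsPsaK* was at 6.08, 8.23 and 7.47 CPM in the wild type against 16.9 and 11.96 CPM (log2 fold change 0.99, edgeR adjusted p = 0.0463), just inside the fold threshold and so not called. *OsPsaF*, the subunit that docks plastocyanin, had a log2 fold change of 1.05 (edgeR adjusted p = 0.0994). *OsPsbR* of photosystem II had 1.24 and *OsAtpC* of the ATP synthase 0.94, at edgeR adjusted p of 0.132 and 0.162. These 4 had groups that did not overlap. *OsPsbO*, a subunit of the oxygen-evolving complex, and *OsPsaE* were at 0.34 and 0.40 on the log2 scale, and *OsAtpD* at -0.18. Summed over the list, the level was 97.5 to 106 CPM in the wild type and 125 to 152 CPM in *osmads58* CRISPR. The list also serves as a marker of green tissue, and its part in the other results was not tested.

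**Figure D3:**
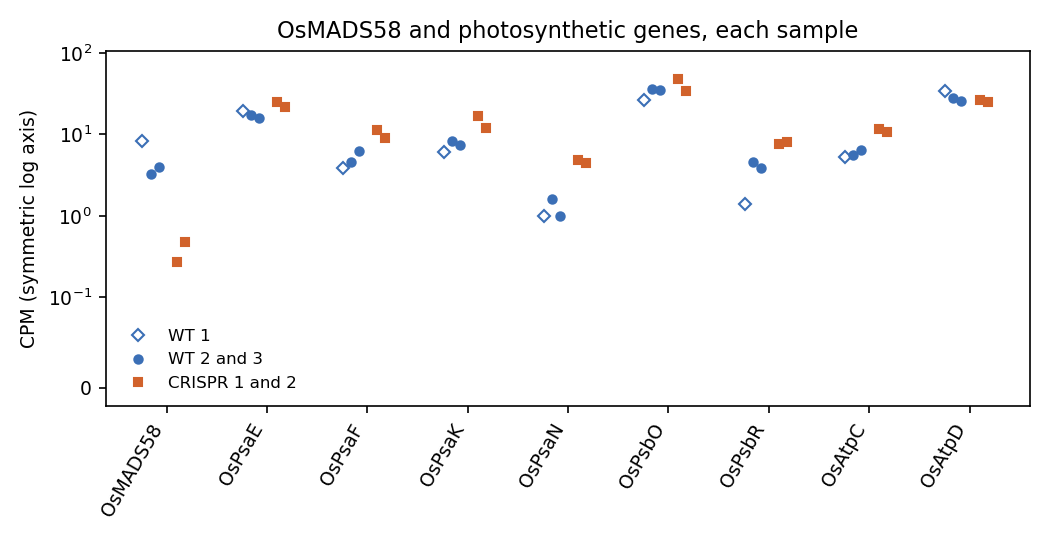
CPM of *OsMADS58* and the 8 detected photosynthetic genes in each wild-type (blue, wild type 1 open) and *osmads58* CRISPR (orange) sample, on a symmetric log axis that is linear below 0.1. *OsMADS58* falls from 3.29 CPM or more to 0.471 CPM or less, and *OsPsaN* rises from 1.61 CPM or less to 4.46 CPM or more.

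The study's lists of cell cycle, meiosis and oxidation reduction loci hold only genes that its authors called differentially expressed in this series. A call in either mutant line against the wild type sufficed, so members not called here may have been called in *osmads58* dSpm only. Neither the number of members called nor their direction is therefore independent evidence. The shares over all genes beside them are no measure of enrichment. The identifiers in these lists carry no gene names in the sources used here, and only the list name is given as a role. Of 18 cell cycle loci, 5 were called higher and 2 lower, and 14 lay above all wild-type samples in both CRISPR samples, with a median log2 fold change of 2.26. Over all genes 2.04% were called higher and 3.51% lower, and 29.0% had both CRISPR samples on top. Leaving out wild type 1, none was called higher and 1 lower, beside 0.824% and 2.04% of all genes. In that fit 16 of the 18 had an unadjusted p under 0.05. None was called in either direction without wild type 2, nor without wild type 3. DESeq2 on all samples called 14 higher and 4 lower, beside 4.72% and 6.73% of all genes. The 4 most abundant members were named after values had been seen. LOC_Os02g39010 was at 289, 440 and 420 CPM in the wild type and at 148 and 124 CPM in *osmads58* CRISPR (log2 fold change -1.49, standard error 0.28, edgeR adjusted p = 0.0181, and 0.0202 without wild type 1). LOC_Os03g01740 was at 263, 177 and 181 CPM against 78.9 and 64.7 CPM (log2 fold change -1.53, edgeR adjusted p = 0.0319, and 0.0759 without wild type 1). Both fell, in contrast to most of the list. LOC_Os10g39920 was at 422, 188 and 181 CPM against 56.7 and 53.4 CPM and was not called (edgeR adjusted p = 0.0699). LOC_Os08g40170 was at 4.54, 11.8 and 14.3 CPM against 78.9 and 86.0 CPM, a gap in every sample, and was not called either (log2 fold change 3.01, standard error 0.84, edgeR adjusted p = 0.0593).

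**Figure D4:**
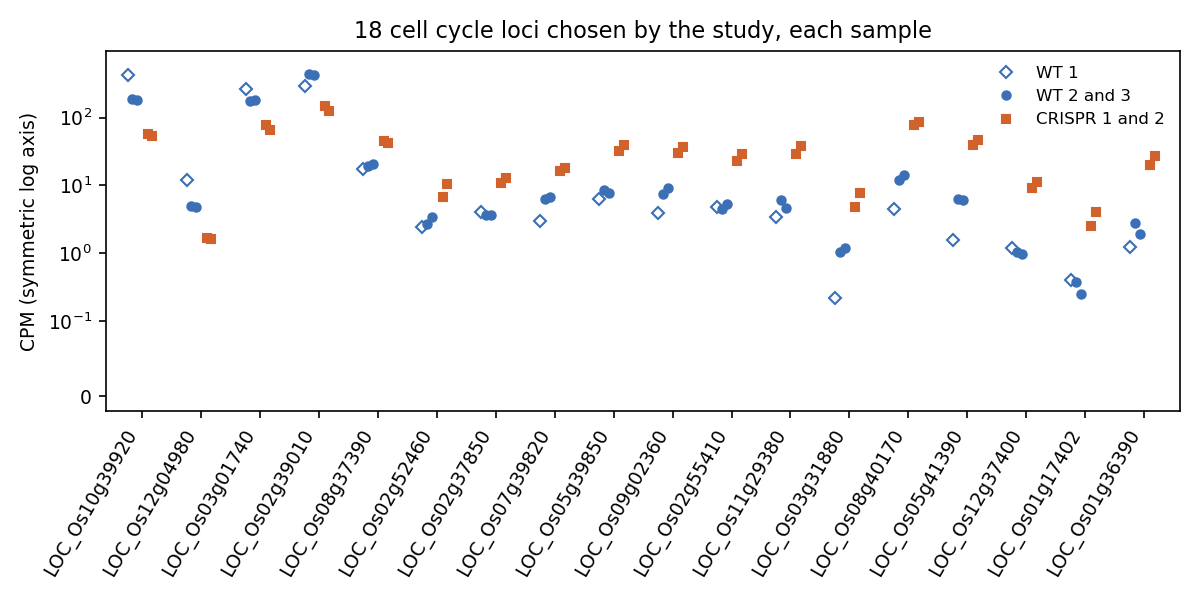
CPM of the 18 cell cycle loci in each sample, ordered by log2 fold change, on a symmetric log axis that is linear below 0.1 (wild type blue, wild type 1 open, *osmads58* CRISPR orange). The 14 loci on the right have both CRISPR samples above the wild type and the 4 on the left below it, and for 10 of the 14 wild type 1 is the lowest point.

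Of 27 meiosis loci, 12 were called higher and 3 lower, with a median log2 fold change of 1.66, and 22 had both CRISPR samples above all wild-type samples, beside 2.04%, 3.51% and 29.0% of all genes. The calls were 1 higher and 1 lower without wild type 1, beside 0.824% and 2.04% of all genes. They were the same without wild type 2 and without wild type 3. With every sample in the fit all 27 had an unadjusted p under 0.05, beside 25.7% of all genes. All 27 also had it without wild type 1. The choice of the list favours such values. For 19 of the 22 with a positive change wild type 1 was the lowest wild-type sample. This list shares 3 loci with the 28 known meiotic genes and 5 with the cell cycle list. LOC_Os04g41110, its most abundant member, was at 561, 356 and 360 CPM in the wild type and at 61.9 and 59.9 CPM in *osmads58* CRISPR. It fell in both mutant samples (log2 fold change -2.81, standard error 0.29, edgeR adjusted p = 0.0032, and -2.56 with adjusted p = 0.0049 without wild type 1). LOC_Os10g36880 rose from 26.2, 45.7 and 43.3 CPM to 114 and 134 CPM (log2 fold change 1.69, edgeR adjusted p = 0.0332, and 0.0853 without wild type 1). LOC_Os01g59120 was at 5.43, 20.7 and 21.4 CPM against 104 and 102 CPM and LOC_Os04g28260 at 33.9, 40.8 and 38.9 CPM against 83.6 and 82.0 CPM. Neither was called, at edgeR adjusted p of 0.0608 and 0.0671.

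Oxidation reduction loci, chosen in the same way, fell more often than they rose. Of 212, all tested, 62 were called lower and 21 higher, beside 3.51% and 2.04% of all genes, with a median log2 fold change of -1.09. One member had a count of 0 in all 5 samples, and 19 were at 0 throughout at least 1 group. With these at the limit that 3 counts set, the median was -1.08. Both CRISPR samples lay below all wild-type samples for 118 members and above for 68, beside 25.6% and 29.0% of all genes. In the fit without wild type 1, 33 were lower and 9 higher, beside 2.04% and 0.824% of all genes. The counts were 24 and 6 without wild type 2 and 30 and 5 without wild type 3. Over all genes, 490 were lower and 147 higher without wild type 2, and 540 and 186 without wild type 3. DESeq2 called 110 lower and 51 higher, beside 6.73% and 4.72% of all genes.

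The 4 most abundant oxidation reduction loci, named after values had been seen, all fell. LOC_Os02g49720 was at 3213, 3568 and 2721 CPM in the wild type and at 867 and 766 CPM in *osmads58* CRISPR (log2 fold change -1.96, standard error 0.37, edgeR adjusted p = 0.0194, and 0.0446 without wild type 1). LOC_Os09g26880 was at 772, 656 and 667 CPM against 197 and 199 CPM (log2 fold change -1.82, edgeR adjusted p = 0.0122). LOC_Os03g31550 was at 682, 497 and 504 CPM against 172 and 165 CPM (log2 fold change -1.73, edgeR adjusted p = 0.0037). In each of these the lowest wild-type sample stood well over the highest mutant sample. LOC_Os12g01530 was at 560, 493 and 550 CPM against 212 and 173 CPM (log2 fold change -1.47, edgeR adjusted p = 0.0094). The last 3 were also called without wild type 1, at adjusted p between 0.0054 and 0.0305.

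**Figure D5:**
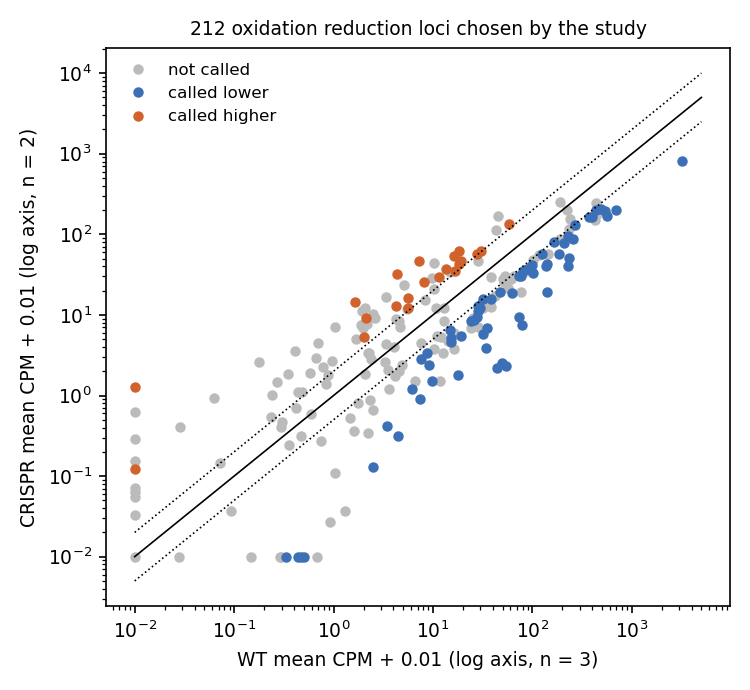
Mean CPM in *osmads58* CRISPR (n = 2) against mean CPM in the wild type (n = 3) for 212 oxidation reduction loci, each plus 0.01, on log axes, with lines of equality (solid) and 2-fold difference (dotted). Blue points are the 62 loci called lower, which include the 4 most abundant, and orange points the 21 called higher.

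The 11 loci that the study took to RT-qPCR from these lists, 8 of them of oxidation reduction and 3 of the cell cycle, were split in direction. The edgeR fit called 3 higher and 4 lower, beside 2.04% and 3.51% of all genes, and each had an unadjusted p under 0.05, as had 25.7% of all genes. Without wild type 1, 5 were lower and none higher, beside 2.04% and 0.824% of all genes. None was higher without wild type 2 or without wild type 3, with 4 and 5 lower. DESeq2 called 5 higher and 6 lower, beside 4.72% and 6.73% of all genes. LOC_Os02g47470, whose primers are given above, was at 84.0, 74.3 and 75.4 CPM in the wild type and at 7.72 and 7.45 CPM in *osmads58* CRISPR. It was 10.3-fold lower with little spread in either group (log2 fold change -3.36, standard error 0.26, edgeR adjusted p = 0.0006), and it was called in all 18 alternative fits. LOC_Os03g55240 was at 104, 55.5 and 57.6 CPM against 9.49 and 9.25 CPM (log2 fold change -2.95, edgeR adjusted p = 0.0116). LOC_Os10g38110 and LOC_Os08g34210 fell by 1.81 and 1.61 on the log2 scale, at edgeR adjusted p of 0.0078 and 0.0105.

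Of the RT-qPCR loci that rose, LOC_Os01g17402 went from 0.398, 0.376 and 0.255 CPM to 2.53 and 4.04 CPM (log2 fold change 3.26, edgeR adjusted p = 0.0354). LOC_Os08g37390 and LOC_Os09g12290 rose by 1.19 and 1.06 on the log2 scale, at edgeR adjusted p of 0.0266 and 0.0399. None of these 3 was called with wild type 1, 2 or 3 left out in turn. LOC_Os05g41390 was at 1.59, 6.31 and 6.12 CPM against 39.99 and 46.2 CPM and was not called (log2 fold change 3.21, standard error 1.02, edgeR adjusted p = 0.0881). The other 3 were not called: LOC_Os01g25484 had a log2 fold change of -0.99 (edgeR adjusted p = 0.0154), LOC_Os08g43190 of -1.34 (0.058) and LOC_Os06g01210 of 1.58 (0.0654). The locus amplified as the RT-qPCR reference, LOC_Os06g48970, was at 89.7, 55.2 and 55.4 CPM in the wild type and at 41.0 and 43.4 CPM in *osmads58* CRISPR. It was lower in both mutant samples without a call (log2 fold change -0.66, edgeR adjusted p = 0.150). *OsAP2-like* (LOC_Os03g64260), an AP2 domain gene that the study places at the centre of its chloroplast network, was at 7.90, 5.997 and 4.46 CPM against 1.16 and 2.39 CPM. Its log2 fold change of -1.78 missed the threshold (standard error 0.47, edgeR adjusted p = 0.0508, and 0.116 without wild type 1), and it was called in 8 of 18 alternatives, DESeq2 among them (adjusted p = 0.0023).

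Some genes were present in 1 group only. At 0 in the 3 wild-type samples and over 1 CPM in both CRISPR samples were 25 genes, and 3 genes were at 0 in both CRISPR samples and over 1 CPM in all wild-type samples. Of the 25, 3 were also over 1 CPM in all 4 *osmads58* dSpm samples and 6 were at 0 in all of them. The largest rise among genes of at least 10 CPM was that of LOC_Os03g43100, at 0 in the wild type and at 42.8 and 33.6 CPM in *osmads58* CRISPR, at least 958-fold higher against a limit of 3 counts per library (edgeR adjusted p = 6.3e-05). It was also high, at 66.1 to 99.8 CPM, in *osmads58* dSpm. LOC_Os07g06834 was at 0 in the wild type and at 32.1 and 23.4 CPM, at least 694-fold higher (edgeR adjusted p = 0.0037), and at most 0.06 CPM in *osmads58* dSpm. The largest falls under the same minimum of 10 CPM were those of LOC_Os03g43750, from 17.5, 33.5 and 29.1 CPM to 0.0809 and 0.112 CPM, and of LOC_Os10g35050, from 278, 89.4 and 98.7 CPM to 1.78 and 1.998 CPM. Their log2 fold changes were -8.07 and -6.36 (edgeR adjusted p = 0.0064 and 0.0037). All 4 were also called without wild type 1.

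Along the chromosomes the calls were spread widely, with a few dense stretches. The share of tested genes called higher ran from 1.72% on chromosome 8 to 2.85% on chromosome 10, and that called lower from 2.52% on chromosome 12 to 4.25% on chromosome 3. In 1351 blocks of 20 tested loci in the order of their identifiers, 1 block had 7 genes higher and no other had more than 4. It ran from LOC_Os11g44880 to LOC_Os11g45330 on chromosome 11, and 5 genes of the block were called higher without wild type 1. In identifier order it lies between LOC_Os11g44520 and LOC_Os11g45970, which the study lists with a sequence change in the CRISPR lines. The block with most genes lower, also 7, ran from LOC_Os06g47930 to LOC_Os06g48210 on chromosome 6, and 3 genes of it were called lower without wild type 1. These blocks were chosen for their counts and no test was made of them.

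Of the loci with a sequence change of their own, few were tested and none was called. Resequencing by the study listed 21 loci beside *OsMADS58* with a change in the CRISPR lines. For its main line the study reports a SNP and indel candidates, in genes it describes as not expressed or unchanged in expression. Of these 8 had a count of 0 in the 5 samples, LOC_Os11g44520 had 8 counts in CRISPR sample 2 only and was not tested, and 12 were tested. None was called by edgeR, against 5.55% of all genes, or by DESeq2, against 4.72% higher and 6.73% lower. With only 12 tested, these shares would leave few or no calls, so the lack of calls does not set these loci apart. Of the 12, 1 had an unadjusted p under 0.05. That was LOC_Os03g56950, at 19.3, 14.1 and 13.3 CPM in the wild type and at 8.36 and 9.85 CPM in *osmads58* CRISPR (log2 fold change -0.78, edgeR adjusted p = 0.147). Its groups did not overlap, as for 25.6% of all genes in that direction.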

How the data were processed

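Total RNA of young panicles was sequenced by the authors, who mapped reads to rice MSU v7.0 with HISAT2 2.1.0 and computed levels with StringTie 1.3.3b. The deposited values are estimated counts per gene, written as whole numbers and not scaled. How coverage became counts is not stated, and 38.6% to 40.7% of counts from 1 to 40 fell on a multiple of 4 (25% if evenly spread), so counting limits may be too narrow. One fit of all 9 samples in 3 groups was made with edgeR 4.0.16 in R 4.3.3 (filterByExpr by group, TMM, glmQLFit, glmQLFTest). A gene counted as called where its Benjamini-Hochberg p was under 0.05 and its log2 fold change beyond 1 in size. A standard error is the size of that change divided by the square root of F. Of 56143 genes, 27251 were tested. The procedure was tested on simulated data. Replicates are those the study calls biological, 1 library each.

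The members and gene lists were chosen with earlier results of these data known. Named genes were OsMADS58, the genes and loci of the study's supplement, and the 2 IDs with the largest change in each direction among called genes of at least 10 CPM, with groups apart and the same direction without wild type 1. The *OsAP2-like* locus and the most abundant list members were added after values were seen. None of the 56143 IDs matched the reference gene table, so no other gene names were given, and tapetum, seed and further function lists were not tested. The single values of 2 of the 28 known meiotic genes are not reported here. As alternatives, other filters, RLE or upper-quartile factors, DESeq2 1.42.0, the 5 samples alone, a replicate block, samples left out, counts divided by 4 and other thresholds were tried.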

Additional observations from a re-analysis of the deposited data

How the results depend on the processing

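Numbers of calls depended on the samples and the tool more than on scaling or filters. Genes higher numbered 555 and genes lower 957, and became 1286 and 1835 with DESeq2, 1113 and 1547 with only the 5 samples, and 52 and 177 at an adjusted p under 0.01. With wild type 1 and *osmads58* dSpm 1 both left out they were 1061 and 1157. With the replicate number as a block they were 1089 and 1452. No source says that a number marks a shared plant or day, and the deviations of same-numbered samples correlated at -0.02 and -0.02 between wild type and CRISPR, 0.01 and -0.06 between *osmads58* dSpm and CRISPR, and 0.31 and 0.13 between wild type and *osmads58* dSpm. Leaving out 1 sample gave 14 to 1188 higher and 17 to 1348 lower. The lowest pairs came without a CRISPR sample, 21 and 39 without CRISPR 1 and 14 and 17 without CRISPR 2, where the lone sample is assumed to vary like the other groups. Without wild type 1, 2 or 3 they were 223 and 552, 147 and 490, and 186 and 540, and without *osmads58* dSpm 1 1188 and 1348. The cause was not tested. Members of all lists together called in either direction numbered 105, and 204 with DESeq2, 175 with the 5 samples, 158 with the replicate block, 9 at an adjusted p under 0.01 and 3 to 175 with 1 sample left out (175 without *osmads58* dSpm 1).

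*OsMADS58* kept its direction in all 18 alternatives and its call in 16. With 1 sample left out its log2 fold change ran from -4.25 to -3.29, and without CRISPR 1 or 2 the edgeR adjusted p was 0.152 or 0.148. *ZYP1/ZEP1* was called in 7 of 18 alternatives, *RAD51D* in 12 and *OsPsaN* in 13, over adjusted p of 0.0051 to 0.348, 0.00016 to 0.208 and 0.0003 to 0.201. Of the genes named, 3 uncalled ones changed sign. *RPA2C* ran from -0.49 to 0.0296 with 1 sample left out, *CRC1/PCH2* from -0.45 to 0.0865 and *HEI10* from -0.15 to 0.181, each positive there only without wild type 1. Without both wild type 1 and *osmads58* dSpm 1 they were at 0.0294, 0.0863 and 0.181, and *HEI10* was at 0.0778 with upper-quartile factors. For *PAIR1* and *RPA2A* the lack of an edgeR call is no sign of equal levels.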
